A study of Mus musculus with 30 samples.

Results

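The genes of the cytosolic ribosomal proteins, which form the large and the small subunit of the ribosome with its rRNAs, were examined in microglia of adult mice with floxed or wild-type Mir137 and an inducible Cre. A gene was taken when its RefSeq symbol began with Rpl or Rps and a number, or was Rplp0, Rplp1, Rplp2 or Rpsa, without the Rps6k kinases and symbols ending in -ps. This gave 89 of 21887 protein-coding genes. Of these, 77 encode a subunit protein, 46 of the large and 31 of the small subunit. The other 12 are paralogs and related symbols that the rule also takes, among them Rpl3l, Rpl22l1 and Rps19bp1, which encodes a protein that binds Rps19 and is not a ribosomal protein. The symbol rule misses some genes of ribosomal proteins, among them Fau, which encodes one fused to a ubiquitin-like part, and Rack1, a ribosome-bound scaffold.

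The cKO mice were Mir137loxP/loxP;Tmem119-CreERT2 and the cWT mice Mir137+/+;Tmem119-CreERT2, so both carried the inducible Cre at Tmem119, a microglial marker gene, and both received tamoxifen on 7 consecutive days. The mice were C57BL/6J and 8 weeks old, per the labels, and about 100000 sorted microglia were used per genotype. The labels give 3 replicates for each genotype with antibodies against H3K27ac and H3K4me3 (marks of active promoters, the first also of enhancers), RNA polymerase II (Pol II), the serine 5 phosphorylated polymerase (Pol II Ser5P, which marks early transcription by the start) and Pu.1, a myeloid transcription factor. The protocol describes CUT&Tag, in which an antibody guides a transposase to cut the DNA beside its target, and it lists the same catalogue number for H3K27ac and both polymerase antibodies, and a different one shared by H3K4me3 and Pu.1. Whether the replicates came from separate mice is not given, and the region lists hold no measure of how completely Mir137 was deleted.

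The data were 10 lists of regions, cKO-specific and cWT-specific for each antibody, with 22399 regions in all and no value per replicate. A listed region is therefore a call by the authors, and nothing below could be set against the spread between replicates. Depth is unknown. Of the microglial marker genes, 7 of 8 had a region within 2 kb of their span, Aif1 being the exception. Of 11 marker genes of neurons, astrocytes, oligodendrocytes and lymphocytes, Mbp alone had any, with 3 cWT H3K27ac, 1 cKO H3K4me3, 3 cKO Pol II and 2 cKO Ser5P regions. Over all protein-coding genes the share with a region was 40.2%.

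Ribosomal protein genes are transcribed at high rates in growing cells and most of their products are needed in equal amounts. Their mRNAs usually begin with a C followed by a pyrimidine tract, the TOP motif, through which mTOR signalling and Larp1 set their translation. Many of these genes also carry snoRNA genes in their introns. Their promoters often lack a TATA box and hold sites for ETS-family factors, the family to which Pu.1 belongs.

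The RefSeq promoter table gave a start for 69 of the 89 genes. At Rps6, Rps16, Rps24, Rps26 and Rpsa, all genes of the small subunit, a cKO Pol II region and a cKO Pol II Ser5P region both covered the same annotated start. Their promoters are shown for that reason, those other than Rpsa added after their values were seen, from 100 bases before the start to the first 50 bases of the transcript, on GRCm38.p6 (the mm10 assembly). Capitals mark the longest run of C and T that touches the 10 bases on either side of the start.
Rps6 promoter (chr4:86857318-86857467, minus strand): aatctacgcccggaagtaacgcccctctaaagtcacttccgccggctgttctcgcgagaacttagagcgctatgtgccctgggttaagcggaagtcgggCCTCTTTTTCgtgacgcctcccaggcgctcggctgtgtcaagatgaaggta
Rps16 promoter (chr7:28350589-28350738, plus strand): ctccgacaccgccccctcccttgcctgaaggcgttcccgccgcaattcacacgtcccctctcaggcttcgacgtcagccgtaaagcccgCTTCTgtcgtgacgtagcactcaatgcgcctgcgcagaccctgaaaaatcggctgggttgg
Rps24 promoter (chr14:24490653-24490802, plus strand): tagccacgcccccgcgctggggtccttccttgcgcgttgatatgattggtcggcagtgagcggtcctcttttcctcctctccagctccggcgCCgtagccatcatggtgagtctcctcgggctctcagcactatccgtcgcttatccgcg
Rps26 promoter (chr10:128626457-128626606, minus strand): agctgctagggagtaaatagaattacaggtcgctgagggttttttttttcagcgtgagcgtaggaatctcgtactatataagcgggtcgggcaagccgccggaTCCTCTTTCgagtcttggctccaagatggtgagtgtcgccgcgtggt
Rpsa promoter (chr9:120127666-120127815, plus strand): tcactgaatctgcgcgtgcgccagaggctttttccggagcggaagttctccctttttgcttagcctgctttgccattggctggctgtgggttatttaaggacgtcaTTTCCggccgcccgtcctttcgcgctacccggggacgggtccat
The Rps6 start lies inside its run, in the form known for TOP mRNAs, and the Rps26 run begins at base 4 of the transcript as annotated. At Rps16 the run ends before the start and at Rpsa it begins at base 7 of the transcript. The Rps24 start covered by both regions has only a short run beside it, and a longer one lies upstream in the stretch shown.

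Across the 69 promoters, 14 (20.3%) had C as the first transcribed base followed by 4 pyrimidines, against 2.17% of 17492 promoters of protein-coding genes. A run of at least 8 pyrimidines touched the 10 bases on either side of the start in 29 (42.0%), against 13.6% of all. The count of 14 takes the annotated start as exact to the base, which was not checked. Rpl7a and Rpl27a, for example, had runs of 21 and 20 pyrimidines there but T as the annotated first base. The letters CCGGAAG, the core of many ETS-family sites, were present on either strand of the 300 bases in 25 of 69 promoters (36.2%), against 11.9% of all. The form GAGGAAG, common in Pu.1 sites, was present in 12 (17.4%), against 13.5% of all, and TATAAA in 8 (11.6%), against 13.3%. The GC box GGGCGG was present in 40 (58.0%), against 46.3%, and CTTTC, which can fall inside a pyrimidine run, in 54 (78.3%), against 54.9%. The letters ATGGCGG, found in YY1 sites, were present in 10 (14.5%), against 5.44% of all. CCGGAAG was as frequent with a cKO Pol II Ser5P region (13 of 36 promoters, 36.1%) as without one (12 of 33, 36.4%). A match describes the letters in the window and shows no binding.

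Of the 89 genes, 62 (69.7%) had at least 1 listed region in the span extended by 2 kb on each side, against 40.2% of all protein-coding genes. The genes are short, with a median span of 3183 bp against 17169 bp over protein-coding genes. Among the 10796 protein-coding genes no longer than the longest of the 89 (16779 bp), 29.4% had a region. The 62 genes held 108 regions, 1 of them counted at 2 genes. Large and small subunit genes were alike in this count, with 34 of 46 (73.9%) and 23 of 31 (74.2%), while 5 of the 12 other symbols had a region. The span alone held regions of 56 genes (62.9%, against 36.2% of all). The 6 that had a region only in the added 2 kb were Rpl7, Rpl39, Rpl41, Rplp0, Rpl7l1 and Rpl37rt, and Rpl23a came in when 5 kb was added.

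**Figure D1:**
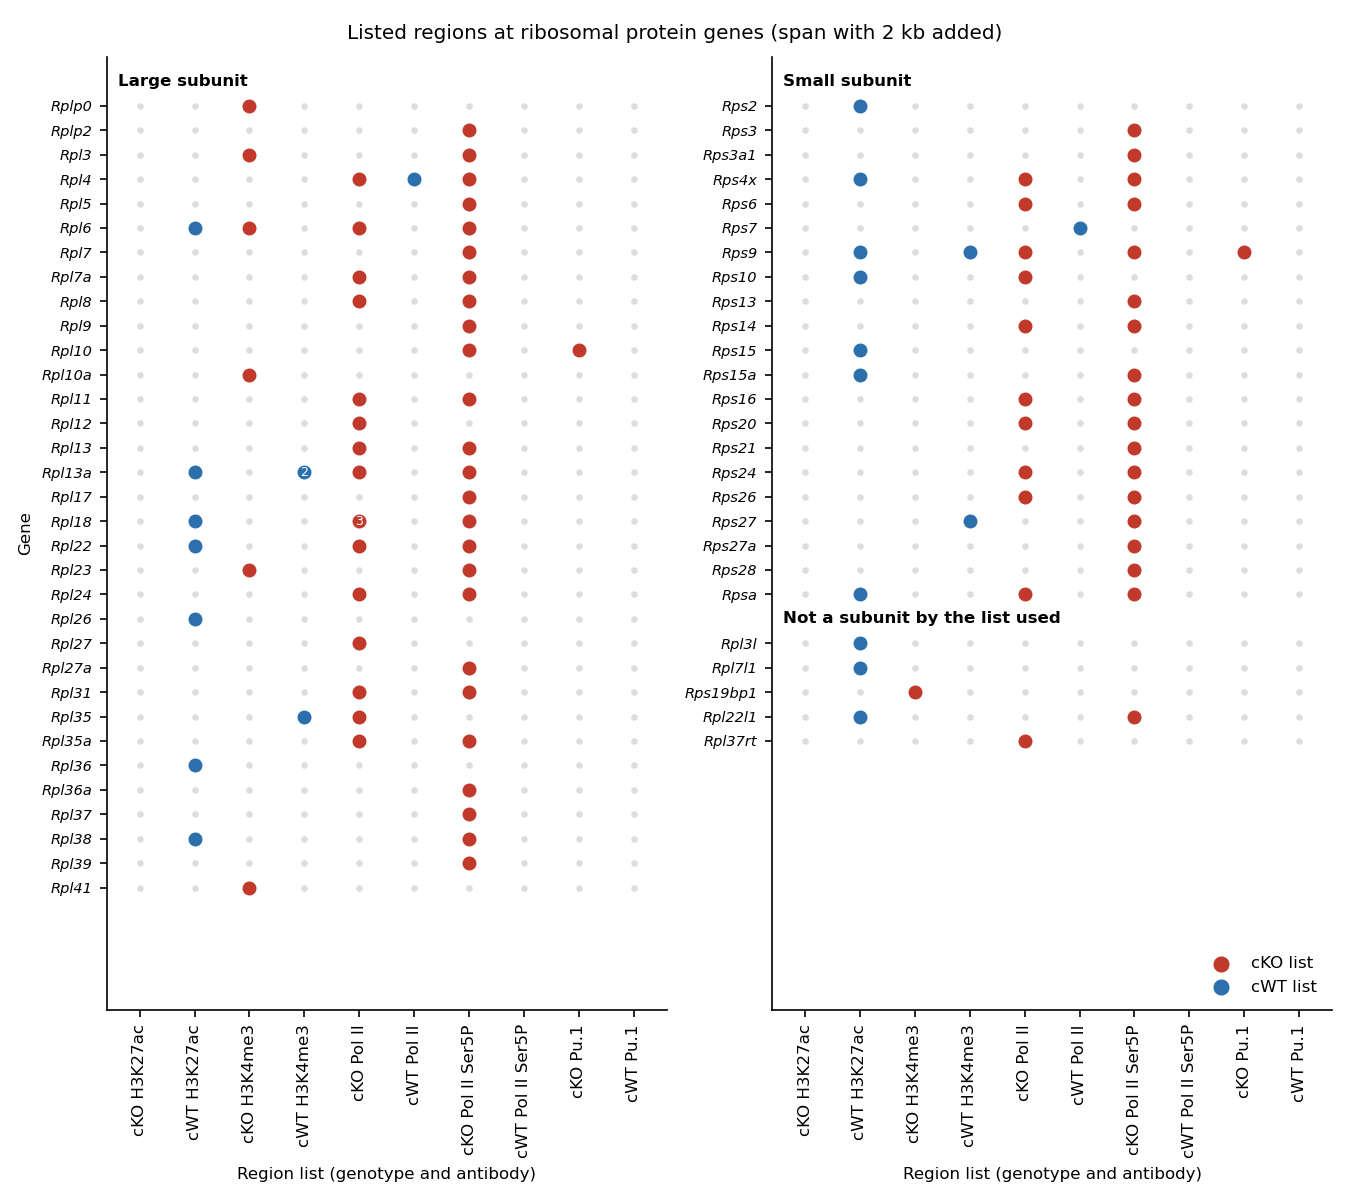
Ribosomal protein genes with a listed region (rows, 59 of the 62 drawn) by genotype and antibody (columns). Coloured dots mark lists with a region, red for cKO and blue for cWT, a number inside a dot gives more than 1 region, and small grey dots mark none. The densest column is cKO Pol II Ser5P, the list with regions at 45 of the 89 genes, and the cKO H3K27ac, cWT Pol II Ser5P and cWT Pu.1 columns are empty.

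Polymerase regions at these genes were almost all in the cKO lists. Pol II Ser5P regions lay at 45 genes in cKO (50.6%, 95% exact Clopper-Pearson interval 39.8 to 61.3%, which like all intervals here covers counting only) and at 0 in cWT (interval 0.0 to 4.06%). The background was 21.1% of protein-coding genes for cKO Ser5P and 0.521% for cWT Ser5P. Among genes no longer than the longest of the 89 it was 14.8 and 0.389%. Each of the 45 genes had 1 region, between 249 and 715 bp wide. They included Rpl3 and Rpl4, whose proteins reach towards the peptidyl transferase centre and line the exit tunnel, Rpl5 and Rpl11, which bind 5S rRNA and can inhibit Mdm2, Rplp2 of the stalk that recruits elongation factors, Rps3 at the mRNA entry, Rps6, the classical substrate of the S6 kinases, and Rps27a, made as a fusion to ubiquitin. By subunit they were 26 of 46 large (56.5%, interval 41.1 to 71.1%) and 18 of 31 small subunit genes (58.1%, interval 39.1 to 75.5%), plus the paralog Rpl22l1. Other Ser5P genes of the large subunit included Rpl6, Rpl7, Rpl7a, Rpl8, Rpl9, Rpl10, Rpl13, Rpl13a, Rpl17, Rpl18, Rpl22, Rpl23, Rpl24, Rpl27a, Rpl31, Rpl35a, Rpl36a, Rpl37, Rpl38 and Rpl39. Those of the small subunit included Rps3a1, Rps4x, Rps9, Rps13, Rps14, Rps15a, Rps16, Rps20, Rps21, Rps24, Rps26, Rps27, Rps28 and Rpsa.

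The cKO share of regions at these genes was close to that of each polymerase list as a whole. For Ser5P, 45 of 45 regions were cKO-specific (100.0%, interval 92.1 to 100.0%), against 98.0% of all 6290 Ser5P regions. For Pol II it was 29 of 31 (93.5%, interval 78.6 to 99.2%), against 92.2% of all 5041. Both whole-list shares lie inside the intervals. Without regions that also lay within 2 kb of another protein-coding gene, 29 genes kept a cKO Ser5P region (32.6%), against 14.9% of all genes.

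Pol II regions lay at 27 genes in cKO (30.3%, interval 21.0 to 41.0%) and at 2 in cWT (2.25%, interval 0.273 to 7.88%). The background was 16.4% for cKO and 1.45% for cWT, and 11.2 and 0.889% among the shorter genes. The cWT count is near its background. The cKO genes were 15 of the large subunit, 11 of the small subunit and the paralog Rpl37rt. The large subunit genes were Rpl4, Rpl6, Rpl7a, Rpl8, Rpl11, Rpl12, Rpl13, Rpl13a, Rpl18, Rpl22, Rpl24, Rpl27, Rpl31, Rpl35 and Rpl35a, and the small subunit genes included Rps4x, Rps6, Rps9, Rps10, Rps14, Rps16, Rps20, Rps24, Rps26 and Rpsa. With regions of at least 300 bp alone the count was 16 of 89, against 12.4% of all genes, and with regions at or under the list's median p-value it was also 16, against 9.48%.

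In all, 50 genes had a cKO region of Pol II or Ser5P (56.2%, against 26.8% of protein-coding genes). Both were present at 22 genes (24.7%, against 10.7%), and Ser5P without Pol II at 23 (25.8%, against 10.4%). Pol II without Ser5P was present at 5, Rpl12, Rpl27, Rpl35, Rpl37rt and Rps10 (5.62%, against 5.67%, so at the background). At 21 of the 22 the regions overlapped by at least 1 bp (23.6% of the 89 genes, against 9.49% of all). Rpl35a was the exception, with Ser5P at its start and Pol II 5723 bp downstream of it, a position that also lies near the neighbouring gene Lmln. The overlap covered between 47.9 and 100.0% of the shorter region, with a median of 96.0%. At the 17 pairs with an annotated start, the Pol II midpoint lay upstream of the Ser5P midpoint in 11, and the median difference, Pol II minus Ser5P, was -11 bp. With regions of at least 300 bp, 7 genes kept an overlapping pair (7.87%, against 5.96% of all genes).

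**Figure D2:**
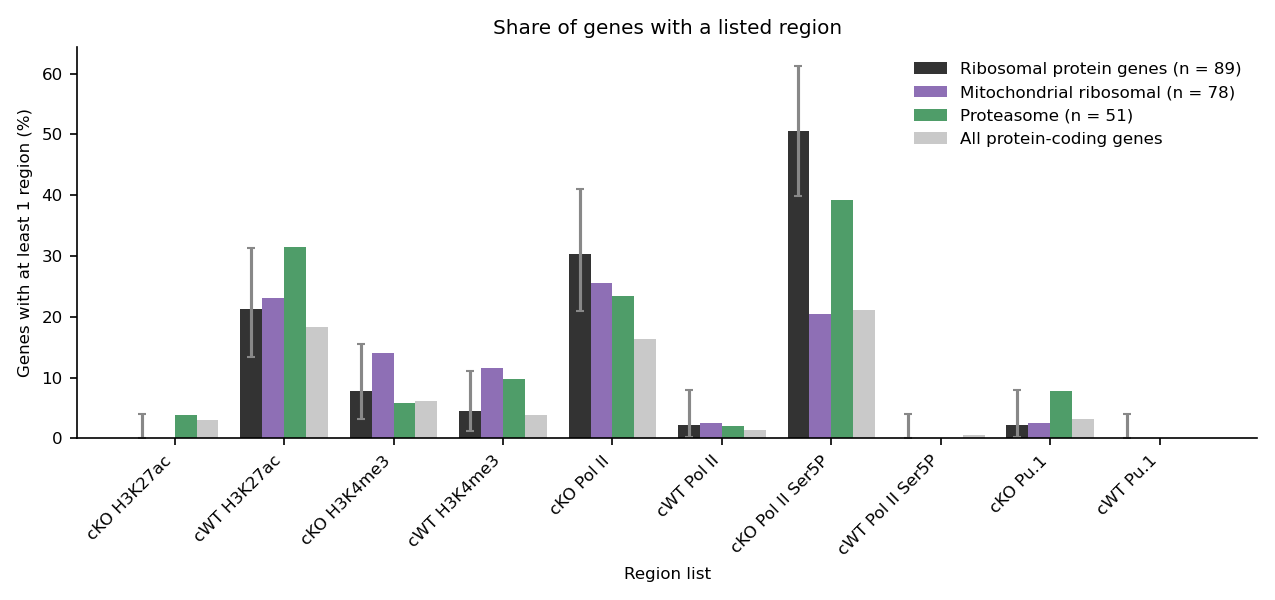
Percentage of genes with at least 1 region in each list (bars from 0) for the 89 ribosomal protein genes, 78 mitochondrial ribosomal protein genes, 51 proteasome genes and all protein-coding genes. Error bars on the first group are 95% exact binomial intervals that cover counting only. The cKO Pol II Ser5P bar of the ribosomal protein genes stands at 50.6%, against 20.5, 39.2 and 21.1% for the other 3 groups.

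Of the 45 Ser5P regions, 36 lay at genes with an annotated start, and most of these 36 sat just inside the gene. Of the 36 with an annotated start, 34 (94.4%) had their midpoint within 500 bp of it and 27 (75.0%) between the start and 500 bp downstream, with a median of 155 bp downstream (quartiles 77.25 and 245.25). Over protein-coding genes no longer than the longest of the 89, 64.1% of 1519 Ser5P regions lay within 500 bp and 36.1% in the 500 bp downstream. The contrast was similar among genes up to 5 kb, with 27 of 28 (96.4%) at ribosomal protein genes and 63.2% of 435 at all such genes within 500 bp. The 2 of the 36 regions that lay beyond 500 bp were those of Rpl18, with its midpoint at -2889 bp from its annotated start, and Rps9, with its midpoint at 2931 bp. The only Rpl18 start in the promoter table lies 2604 bp inside the gene span, and its Ser5P region ended just upstream of the span. The annotated start of their gene was covered by 17 of the 36 regions (47.2%), against 40.8% over the shorter genes.

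Pol II midpoints were spread more widely. Of 25 regions with an annotated start, 20 (80.0%) lay within 500 bp and 14 (56.0%) in the 500 bp downstream, with a median of 90 bp downstream. The shares over the shorter protein-coding genes were 64.8 and 35.9%. Of 16 cWT H3K27ac regions, 8 lay within 500 bp, against 51.5% over the shorter genes, with a median of 459.5 bp downstream. Of 6 cKO H3K4me3 regions 4 lay within 500 bp (66.7%, against 72.9% over the shorter genes), with Rpl41 at 1541 bp and Rplp0 at 5948 bp. The 5 cWT H3K4me3 regions all lay within 500 bp, against 68.4% of 313 regions over the shorter genes.

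**Figure D3:**
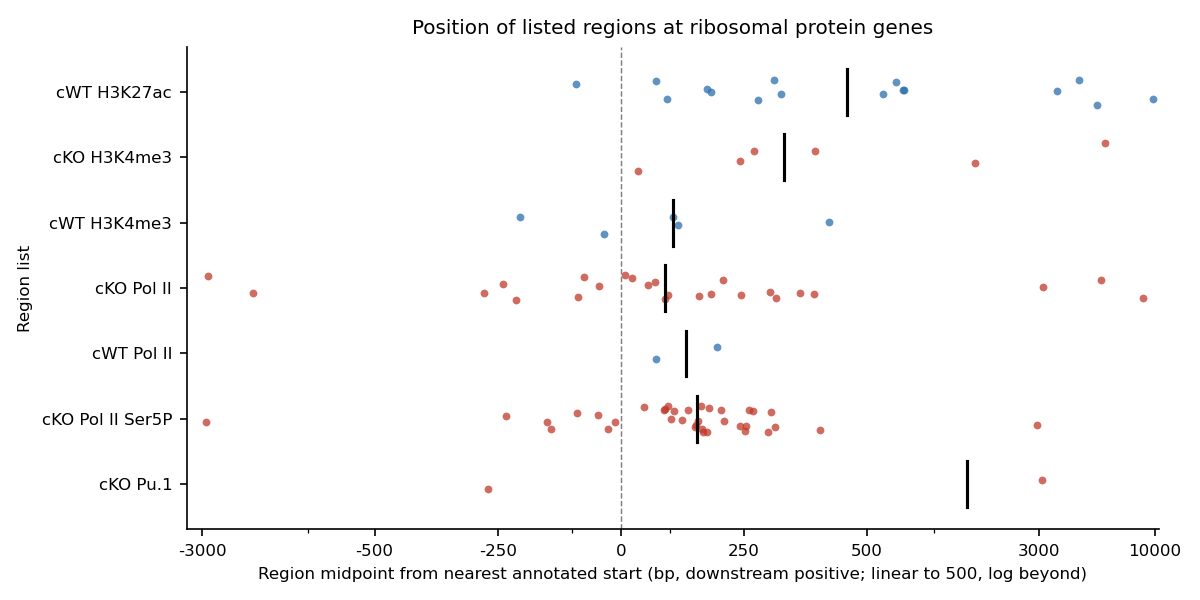
Distance of each region's midpoint from the nearest annotated start of its ribosomal protein gene in bp, downstream positive, on an axis that is linear to 500 bp and logarithmic beyond. Each point is a region at 1 gene, rows are lists, and black lines are medians. The cKO Pol II Ser5P points gather between 0 and 500 bp, where 27 of 36 lie.

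Some of the genes carried small RNA genes inside their span. Genes with symbols starting Snord, Snora or Mir lay within 25 of the 89, most often in Rpl13a, with 5. A cKO Ser5P region was present at 18 of these 25 (72.0%) and at 27 of the other 64 (42.2%). For cKO Pol II the counts ran the other way, 5 of 25 (20.0%) and 22 of 64 (34.4%). The median spans were 3175 and 3310.5 bp. All 12 symbols that are not subunit genes fell among the 64. Of these 12, 1 had a cKO Ser5P region and 1 a cKO Pol II region (8.33% each), which lowers both shares of the 64. These shares describe the genes listed, and the difference was not tested.

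H3K27ac regions were found in the cWT list only. No gene had one in cKO (0 of 89, interval 0.0 to 4.06%) and 19 had one in cWT (21.3%, interval 13.4 to 31.3%). The background was 2.99% of protein-coding genes for cKO and 18.3% for cWT. Among the shorter genes it was 1.51 and 10.6%. The cWT share was near that of all genes and above that of the shorter ones. With regions of at least 300 bp it was 12 genes (13.5%, against 16.4% of all), and without regions near another protein-coding gene also 12 (13.5%, against 14.5%). The 0 of 18 regions that were cKO-specific (interval 0.0 to 18.5%) stand beside 10.8% of all 7842 H3K27ac regions, which lies inside the interval. The genes included Rpl6, Rpl13a, Rpl18, Rpl22, Rpl26, Rpl36 and Rpl38 of the large subunit, Rps2, Rps4x, Rps9, Rps10, Rps15, Rps15a and Rpsa of the small subunit, and the paralogs Rpl3l, Rpl7l1 and Rpl22l1. The Rpl22l1 region had the highest deposited signal among them, 23.6, followed by Rpl38 with 21.9 and Rpl22 with 20.3, and these were the 3 whose names hold the word primary.

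At 12 of these 19 genes a cKO polymerase region was also listed (13.5% of the 89, against 9.9% of all genes). They included Rpl6, Rpl13a, Rpl18, Rpl22, Rpl22l1, Rpl38, Rps4x, Rps9, Rps10, Rps15a and Rpsa. The cKO polymerase region and the cWT H3K27ac region overlapped at 5 of them, Rpl18, Rpl22, Rps4x, Rps10 and Rps15a (5.62%, against 4.66% of all genes). At Rpl6, Rpl22l1 and Rpl38 the H3K27ac region began downstream of where the polymerase regions ended. Taken singly, cKO Pol II and cWT H3K27ac were both listed at 8 genes (8.99%, against 6.64% of all) and overlapped at 4 (4.49%, against 2.96%). For cKO Ser5P and cWT H3K27ac it was 11 genes (12.4%, against 7.79%) and 3 overlapping (3.37%, against 3.13%).

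H3K4me3 regions were few and in both lists. They lay at 7 genes in cKO (7.87%, interval 3.22 to 15.5%, background 6.16% of all and 5.04% of the shorter genes) and at 4 in cWT (4.49%, interval 1.24 to 11.1%, background 3.89% of all and 3.38% of the shorter genes), both near the background. The cKO genes were Rplp0 of the stalk, Rpl3, Rpl6, Rpl10a, Rpl23, Rpl41 and the non-ribosomal Rps19bp1. The cWT genes were Rpl13a, Rpl35, Rps9 and Rps27. At 3 genes, Rpl3, Rpl6 and Rpl23, the cKO H3K4me3 region overlapped a cKO polymerase region (3.37% of the 89, where 2.99% of all genes had both and 1.86% had them overlapping). All 4 cWT genes also had a cKO polymerase region (4.49%, against 2.02% of all), which overlapped the cWT H3K4me3 region at Rpl13a and Rps27 (2.25%, against 1.21%).

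Pu.1 regions lay at 2 genes in cKO, Rpl10 and Rps9 (2.25%, background 3.24% of all and 1.48% of the shorter genes), and at 0 in cWT (background 0.0959 and 0.0185%). The counts are near the background. The Rpl10 region (chromosome X, 74270413 to 74270680) had its midpoint at -270 bp from the start of this gene, which encodes a late-joining protein of the large subunit. It ended before the cKO Ser5P region at 74271033 to 74271410 began.

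Rps9, which encodes a small subunit protein near the mRNA entry, was the 1 gene with regions of all 5 antibodies (chromosome 7, span 3703954 to 3706897). Regions of the cKO lists for Pol II (3707023 to 3707299), Ser5P (3706747 to 3707198) and Pu.1 (3706947 to 3707323) overlapped each other at the end of the gene, with midpoints between 2931 and 3120 bp downstream of the annotated start. The cWT regions of H3K27ac (3703915 to 3704353) and H3K4me3 (3704247 to 3704682) overlapped each other at its start. The cKO and cWT regions thus lay at opposite ends. The deposited signals were 11.6, 6.28 and 8.96 for the cKO regions and 10.4 and 14.7 for the cWT regions. Signals of different lists are not on a stated common scale.

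Rpl6, which encodes a large subunit protein, had 4 antibodies listed just inside its start (chromosome 5, span 121204501 to 121209241), with midpoints between 271 and 679 bp downstream. The cKO regions of H3K4me3 (121204632 to 121204913), Pol II (121204678 to 121205052) and Ser5P (121204581 to 121205048) shared most of their length. The cWT H3K27ac region, 121205074 to 121205287, began just after them. Rpl13a, whose protein leaves the ribosome under interferon in human cells to repress inflammatory mRNAs, also had 4 antibodies (chromosome 7, span 45125563 to 45128745, transcribed from the right). Upstream of its start lay a cKO Pol II region, 45128752 to 45129218, which is also within 2 kb of Flt3l, and a cKO Ser5P region, 45128845 to 45129111. The 2 adjoining cWT H3K4me3 regions, 45128506 to 45128769 and 45128770 to 45129129, spanned the start. Its cWT H3K27ac region, 45124059 to 45124327, lay past the 3' end, inside the span of a neighbouring ribosomal protein gene at which it is also counted.

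At Rps4x, the X-linked small subunit gene, 3 regions of nearly the same position were listed (chromosome X, span 102184941 to 102189391). They were cKO Pol II (102188863 to 102189289), cKO Ser5P (102188920 to 102189325) and cWT H3K27ac (102188835 to 102189297), with midpoints 315, 268 and 325 bp downstream of the start. At Rpl22, whose loss in mice disturbs T cell development, the same 3 lists held overlapping regions (chromosome 4, cKO Pol II 152325671 to 152326197, cKO Ser5P 152325858 to 152326116 and cWT H3K27ac 152325762 to 152326247). These lay by the downstream one of 2 annotated starts, 1290 bp from the other. At Rpl18 the cKO list of Pol II held 3 regions (chromosome 7, 45715096 to 45715393, 45716161 to 45716461 and 45717723 to 45717996) and that of Ser5P 1 (45715036 to 45715328). The cWT H3K27ac region, 45717650 to 45718313, contained the last of the Pol II regions. All 5 also lay within 2 kb of Sphk2, a sphingosine kinase gene. At Rpsa, which encodes a small subunit protein also known as the laminin receptor, cKO Pol II (chromosome 9, 120127590 to 120127987) and Ser5P (120127722 to 120128002) covered the start, within 2 kb of the neighbour Slc25a38, whereas cWT H3K27ac lay past the end of the gene (120133011 to 120133476).

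Rpl4 and Rps7 were the 2 genes with a cWT Pol II region. At Rpl4 (chromosome 9) cKO Pol II lay at 64172877 to 64173344 and cKO Ser5P at 64173121 to 64173629, and the cWT Pol II region, 64173315 to 64173602, overlapped both. The 2 Pol II regions of Rpl4 overlapped at their edges, with the cKO midpoint at -277 bp and the cWT midpoint at 71 bp from the start. Zwilch, a gene of the kinetochore, lies within 2 kb of all 3. At Rps7 (chromosome 12) the cWT Pol II region, 28635619 to 28635895, was the only region of any list.

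**Figure D4:**
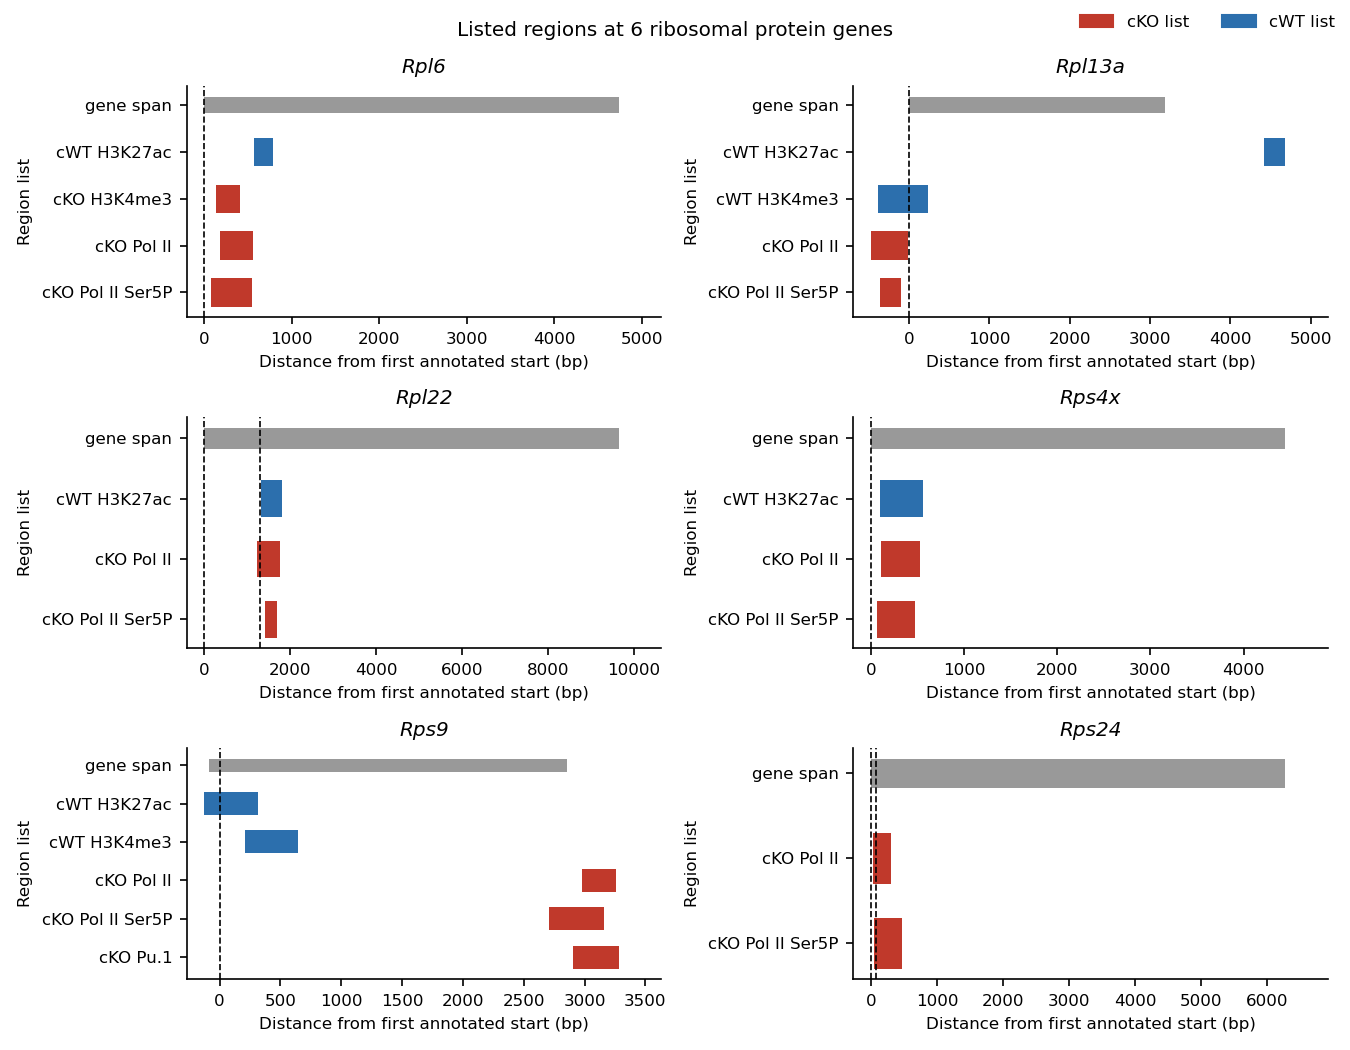
Regions at Rpl6, Rpl13a, Rpl22, Rps4x, Rps9 and Rps24 by distance in bp from the first annotated start in the direction of transcription. Grey bars are gene spans, red bars cKO regions, blue bars cWT regions and dashed lines annotated starts. At Rps4x and Rpl22 the red and blue regions overlap, and at Rps9 they lie at opposite ends of the gene.

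A deposited p-value under 0.05 was found for 0 of the 108 regions, against 169 of all 22399. Their p-values ran from 0.0769 (Rpl22l1, cKO Ser5P) to 0.972 (Rpl18, cKO Pol II), with a median of 0.636. The labels do not say what these values test. Within the cKO Ser5P list, the median of the 45 regions was 0.56, against a list median of 0.724, and 36 of the 45 lay at or under it. Within cKO Pol II the medians were 0.709 at these genes and 0.789 over the list, and 16 of 29 regions lay at or under the list median. Of the names, 11 of 108 hold the word primary (10.2%, against 4.05% of all regions). Of these, 7 were in cKO Ser5P (15.6% of the 45, against 7.2% of the list), at Rpl10, Rpl22l1, Rpl27a, Rpl36a, Rplp2, Rps13 and Rps27a, 3 in cWT H3K27ac and 1 in cKO Pol II, at Rps24. The median region width was 378 bp at these genes and 369 bp over the list for cKO Ser5P, and 318 bp at these genes and 353 bp over the list for cKO Pol II.

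No region was listed at 27 genes, 12 of the large subunit, 8 of the small subunit and 7 others. The large subunit genes were Rpl14, Rpl15, Rpl19, Rpl21, Rpl23a, Rpl28, Rpl29, Rpl30, Rpl32, Rpl34, Rpl37a and Rplp1. The small subunit genes included Rps12, Rps18, Rps19, Rps23, Rps25 and Rps29. Rps19, the gene most often mutated in Diamond-Blackfan anaemia in humans, is among them, while Rps24 and Rps26, also mutated in that disease, had cKO Pol II and Ser5P regions. An absent region means only that the lists name none there, and says nothing of the gene's level of occupancy.

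Related genes were counted in the same way. The 78 mitochondrial ribosomal protein genes, whose products form the ribosome of mitochondria, had cKO Ser5P regions at 16 of 78 (20.5%) and cKO Pol II regions at 20 (25.6%). Proteasome genes, a second housekeeping complex, had them at 20 of 51 (39.2%) and 12 (23.5%). Their median spans, 7690.5 and 11567 bp, exceed the 3183 bp of the 89 genes. Differences between any of these gene groups were not tested. Of ribosomal genes that the symbol rule misses, Rack1 had cKO regions of Pol II and Ser5P and Fau had no region. Among 18 translation factor and other TOP mRNA genes (median span 9828 bp), 8 had a cKO Ser5P region (44.4%) and 9 of the 18 a cKO Pol II region, set beside 30.3% of the 89 genes, with Eef2 (the translocation factor of elongation), Eif3h and Vim listed for 3 antibodies. Of 11 genes of mTOR and TOP control, with a far longer median span of 39539 bp, 6 had cKO Ser5P (54.5%) and 5 cKO Pol II regions (45.5%). Mtor itself, Rptor, Larp1 and Eif4e were listed for 3 antibodies, Rptor with 5 cKO Ser5P regions, 1 cKO and 7 cWT H3K27ac regions. Of 22 genes of rRNA synthesis and ribosome assembly (median span 15383.5 bp), 8 had cKO Ser5P (36.4%) and 9 cKO Pol II regions (40.9%). The shares over all protein-coding genes were 21.1% for cKO Ser5P and 16.4% for cKO Pol II. Dkc1, the pseudouridine synthase of H/ACA snoRNPs, and Eif6, which keeps the subunits apart, were listed for 4 antibodies each, and Nop58, a core protein of C/D snoRNPs, for 3.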

How the data were processed

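Per the submitters' processing notes, the builds were GRCm38 and mm10 and the tools HOMER 4.11, bedtools 2.30.0, MACS2 2.2.7.1 and Bowtie2 2.4.4. The role of each tool, the handling of replicates and the criterion for a genotype-specific region were not stated there. Each deposited region has a score, a signal and a p-value made by the authors. The score was not used, and the signal, on an unstated scale, and the p-value only described, ranked or filtered regions within a list. A column of adjusted p-values was not used. Positions count from 1.

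Regions were assigned to every RefSeq protein-coding gene (GRCm38.p6, the same assembly) whose span with 2 kb on each side they overlapped by at least 1 bp. Starts and promoter sequences came from a RefSeq table of that assembly. With no value per replicate and 1 list per group, no test over samples was possible, and shares carry exact Clopper-Pearson intervals of 95%. The overlap code was checked on simulated regions. Python 3.11.15, numpy 2.4.6, pandas 2.3.3, scipy 1.17.1 and matplotlib 3.10.9 were used.

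The genes, lists and alternatives were chosen with earlier results of these data known. Described in full were genes with 3 or more antibodies, or with a region in the cKO H3K27ac list or in the cWT lists of Pol II, Ser5P or Pu.1, or with a p-value under 0.05. Promoters were to be shown for genes described in full with cKO Pol II and Ser5P regions over the start, which gave Rpsa. The other promoters, with both regions over the start but fewer antibodies, and the genes in the maps, were added after their values were seen. Some genes are counted in the totals but not reported by name here.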

Additional observations from a re-analysis of the deposited data

How the results depend on the processing

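Of 81 values recomputed (9 counts of genes under 9 other settings), 55 stayed within 1.5 times the count reported and 26 did not. Shares of the 89 genes are given against those of all protein-coding genes. Keeping only regions with a deposited p-value under 0.05 left 0 genes for each of the 9 counts, against at most 0.662% of all. Leaving out regions also within 2 kb of another protein-coding gene left 40 genes with any region (44.9%, against 29.7%), 12 with cWT H3K27ac (13.5%, against 14.5%) and 29 with cKO Ser5P (32.6%, against 14.9%). Regions of at least 300 bp left 12 genes with cWT H3K27ac (13.5%, against 16.4%), 4 with cKO H3K4me3 (4.49%, against 4.98%), 16 with cKO Pol II (against 12.4%), 1 with cKO Pu.1 (1.12%, against 1.59%) and 7 with overlapping cKO Pol II and Ser5P regions (7.87%, against 5.96%). Regions at or under the median p-value of their list left 4 genes with cKO H3K4me3 (4.49%, against 3.15%), 1 with cWT H3K4me3 (1.12%, against 1.99%), 16 with cKO Pol II (against 9.48%), 1 with cKO Pu.1 (1.12%, against 1.64%), 10 with overlapping cKO polymerase regions (11.2%, against 3.94%) and 7 with cWT H3K27ac and cKO polymerase regions (7.87%, against 4.41%). The gene span alone gave 0 genes with cKO Pu.1 (against 2.6%). The 2 kb around annotated starts, known for 69 genes, gave 12 with cWT H3K27ac (17.4% of the 69, against 1756 of 17492 genes) and 1 with cKO Pu.1 (1.45%, against 1.71%). Each of these settings counts fewer regions or genes. Some shares fell more at the 89 genes than over all genes, and the cause of that was not tested. No paired analysis was possible because the lists hold no value per replicate, and leaving out replicates was not possible for the same reason.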

Other observations

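Ribosomal protein genes have many processed copies, so reads at them can be shared with pseudogenes. The RefSeq table names 310 pseudogenes with a ribosomal protein symbol and -ps. Of these, 3 overlapped a listed region and 11 had one within 2 kb, 6 of them a cKO Ser5P region, 1 a cKO Pol II region, 1 a cKO H3K27ac region (Rpl17-ps7), 5 a cWT H3K27ac region and 1 a cWT Pol II region (Rpl21-ps1). Rpl9-ps1 had overlapping cKO regions of Pol II (chromosome 11, 83646810 to 83647352) and Ser5P (83646750 to 83647292). Rpl35a-ps7 had a cKO Ser5P region (chromosome 6, 47813256 to 47813686) inside a cWT H3K27ac region (47813193 to 47814006). Of the 89 genes, 61 have such a named copy. A cKO Ser5P region was present at 30 of these 61 (49.2%) and at 15 of the other 28 (53.6%). The 2 groups differ in make-up. Of the 12 symbols that are not subunit genes, all but Rpl7l1 lack a named copy. Only 1 of these 12 had a cKO Ser5P region (8.33%), which lowers the share of the group without a named copy. Copies under other symbols were not counted. The shares therefore do not show that copies make no difference. The sources do not say how the authors treated reads that map to several places, and their part in the lists was not tested.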
